A study of Homo sapiens with 35 samples.

Results

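The cells described here come from H1, an established line of human embryonic stem cells, and were sampled 36 h into differentiation towards endoderm. By the labels they received 100 ng/ml Activin A with 3 µM CHIR99021 on day 1 and Activin A alone afterwards. Activin A is a ligand that acts through the same receptors as Nodal, and CHIR99021 inhibits the kinase GSK3 and so switches on Wnt signalling. The members are all barcodes of the 36 h droplet library with at least 500 genes detected and at most 10% of their unique molecular identifiers (UMIs, each counting 1 captured RNA molecule) in mitochondrially encoded genes. They number 4193 of the 6244 barcodes in that library, and of 14336 cells kept by the same filter in all 3 single-cell libraries. They are set against 4511 cells labelled definitive endoderm, treated in the same way and taken at 72 h (Endo), and 5632 cells labelled mesoderm, taken at 72 h after STEMdiff Mesoderm Induction (Meso). The series also holds 32 bulk samples, some of which are used near the end. Cells were sorted before loading, and the gate is not given in the sources used here. There is 1 library in each group, so no value below carries a replicate error, and intervals cover counting error only.

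In the embryo, the primitive streak is where epiblast cells move inward and become mesoderm or endoderm. Nodal and Wnt signals start it, and the T-box factors EOMES and TBXT and the homeobox factors MIXL1 and GSC mark the cells that enter. Pluripotency factors of the epiblast decline as this goes on, and secreted inhibitors such as CER1, DKK1 and the LEFTY proteins bound the response.

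The 36 h library was deeper than the others and uneven within itself, as was Endo. Its kept cells had a median of 21152 UMIs and 3948 genes, against 7680 UMIs and 2157 genes in Endo and 7873.5 UMIs and 2267 genes in Meso. The 36 h cells formed 2 depth classes, 2919 cells with at least 5000 UMIs (median 25482) and 1274 cells below that (median 1762). The shallow cells held 3.54% of the kept UMIs and had a median of 0.572% mitochondrial UMIs, against 2.95% in the deep cells. The 2051 barcodes left out at 36 h all exceeded the mitochondrial limit and had a median of 2560 UMIs. The 36 h library shared 23 kept barcodes with Endo and 38 with Meso. Because of the depth gap, shares of cells are given after every cell was thinned at random to 2000 UMIs, which left 3416 of the 36 h cells, 3685 of Endo and 5539 of Meso. Pooled levels are in CPM, a gene's UMIs scaled to a common library total.

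**Figure D1:**
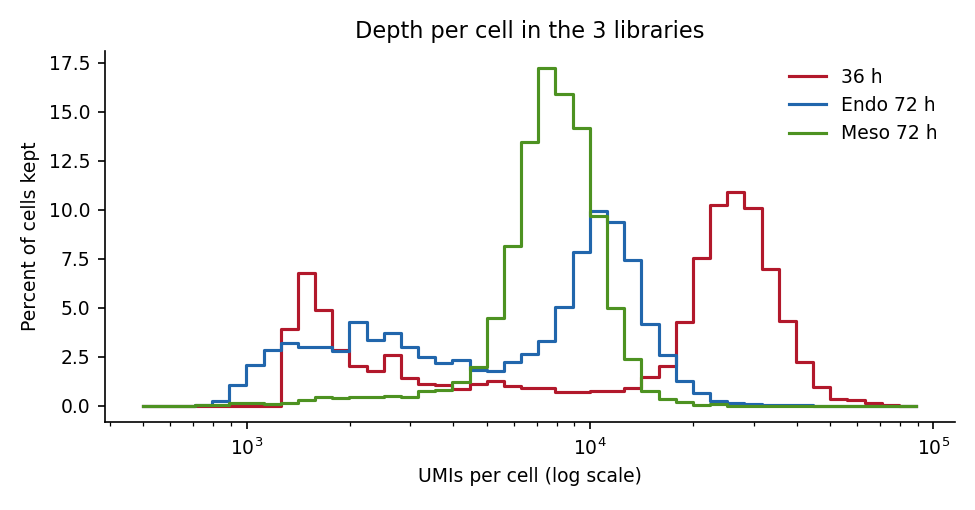
UMIs per kept cell (x, log scale) against the percent of kept cells in each bin (y) for the 36 h, Endo and Meso libraries. The 36 h cells form a shallow group near 1762 UMIs and a deep group near 25482 UMIs, the medians of its 2 depth classes. Endo also has a shallow group, with 41.3% of its kept cells below 5000 UMIs, while Meso has a single peak.

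The pluripotency factor POU5F1 was found in most 36 h cells, and factors that define the streak were found in fewer cells at the same depth. Shares of cells with a UMI depend on depth and do not give the share that expresses a gene. POU5F1, which holds the epiblast state, reached 995 CPM (95% Poisson interval 988 to 1002) at 36 h, against 310 CPM in Endo and 434 CPM in Meso. A UMI of it was found in 84.4% of thinned 36 h cells (exact Clopper-Pearson interval 83.1 to 85.6), against 41.7% in Endo and 56.0% in Meso. Without thinning the shares were 93.9%, 68.4% and 93.8%, in the same order of libraries. It was thus the one marker that nearly every deep 36 h cell showed, since 98.9% of them had a UMI of it at 5000 UMIs per cell.

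NODAL, the ligand that starts the streak, stood at 237 CPM (233 to 240) at 36 h, against 200 CPM in Endo and 6.28 CPM in Meso. It was seen in 34.3% of 36 h cells (32.7 to 35.9), against 29.1% in Endo and 1.23% in Meso, and unthinned in 73.4%, 57.5% and 4.26%. Its level at 36 h was thus close to that of Endo, at a log2 ratio of 0.24, and 37.7-fold that of Meso. GDF3, a ligand of the same family, reached 48.2 CPM at 36 h, against 2.07 CPM in Endo and 3 UMIs in all in Meso. Its ratio to Endo was 23.3 (18.4 to 29.9) and its ratio to Meso 725, with a counting interval of 248 to 3516. It was found in 7.79% of 36 h cells, against 0.461% in Endo and 0 of 5539 thinned cells in Meso, which allows a UMI in up to 0.0542% of cells at this depth.

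MIXL1 and EOMES were not highest at 36 h. MIXL1 stood at 132 CPM (129 to 134) at 36 h, against 146 CPM in Endo and 232 CPM in Meso, and was seen in 18.5%, 20.7% and 34.0% of thinned cells and 52.7%, 43.0% and 74.2% unthinned. Its log2 ratio to Endo was -0.15, and 0.13 with edgeR's TMM scaling, so the sign depends on the scaling. EOMES stood at 71.2 CPM (69.4 to 73.2) at 36 h, against 272 CPM in Endo and 4.19 CPM in Meso, a 36 h over Endo ratio of 0.262 (0.254 to 0.271). A UMI of EOMES was found in 10.8% of thinned 36 h cells, against 36.0% in Endo and 0.903% in Meso, and unthinned in 46.2%, 60.9% and 3.04%. At 5000 UMIs the 36 h shares were 35.0% for MIXL1 and 27.4% for EOMES. SFRP2, a secreted Wnt antagonist made by pluripotent cells, was high at 36 h alone among the 3 libraries. It reached 242 CPM (239 to 246) at 36 h, against 22.3 CPM in Endo and 32.3 CPM in Meso, and was found in 36.3%, 4.40% and 6.64% of cells.

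Of the 6 given markers, 3 (POU5F1, SFRP2 and GDF3) were at least 2-fold higher at 36 h than in Endo and 1 (EOMES) at least 2-fold lower. Of the 7548 genes that reached 10 CPM in one or other of these libraries, 15.1% were at least 2-fold higher at 36 h and 17.6% lower, together 32.8%. Against Meso, 5 of the 6 were higher, all but MIXL1, beside 6.36% of 7237 genes higher and 11.0% lower, together 17.3%.

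The label primitive streak fits these cells in part. Of a list of 19 streak genes, 11 reached 10 CPM in the comparison with Endo. Of these, 3 (TBXT, WNT3 and SP5) were at least 2-fold higher at 36 h and 6 lower, beside 15.1% and 17.6% of all genes. Against Meso 4 of 13 were higher and 7 lower (6 with TMM factors), beside 6.36% and 11.0% of all genes. TBXT, the classical streak factor, stood at 28.3 CPM at 36 h, against 3.05 CPM in Endo and 326 CPM in Meso, and was found in 5.01% of thinned 36 h cells, against 0.516% and 45.3%, and unthinned in 28.5%, 2.06% and 84.0%. GSC, a factor of the anterior streak, stood at 6.42 CPM at 36 h, against 99.8 CPM in Endo and 0.377 CPM in Meso, and was seen in 1.32% of 36 h cells. SOX2, a factor of epiblast and neural cells, was in 9.25% of 36 h cells, against 1.30% in Endo and 0.722% in Meso, and NANOG in 13.0%, 2.52% and 0.596%. The cells are therefore called 36 h cells here. SOX17, which defines endoderm, had 0 UMIs at 36 h, which allows a UMI in up to 0.0878% of 3416 thinned cells, against 19.1% of Endo cells with one. This limits cells with a UMI, not cells that express the gene. In Endo it was at least 3147-fold higher on the CPM scale, with a floor of 3 counts for the 36 h library. The matrices also hold an entry named mNeonGreen, a fluorescent protein, with 10 UMIs at 36 h, 8192 in Endo and 0 in Meso.

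**Figure D2:**
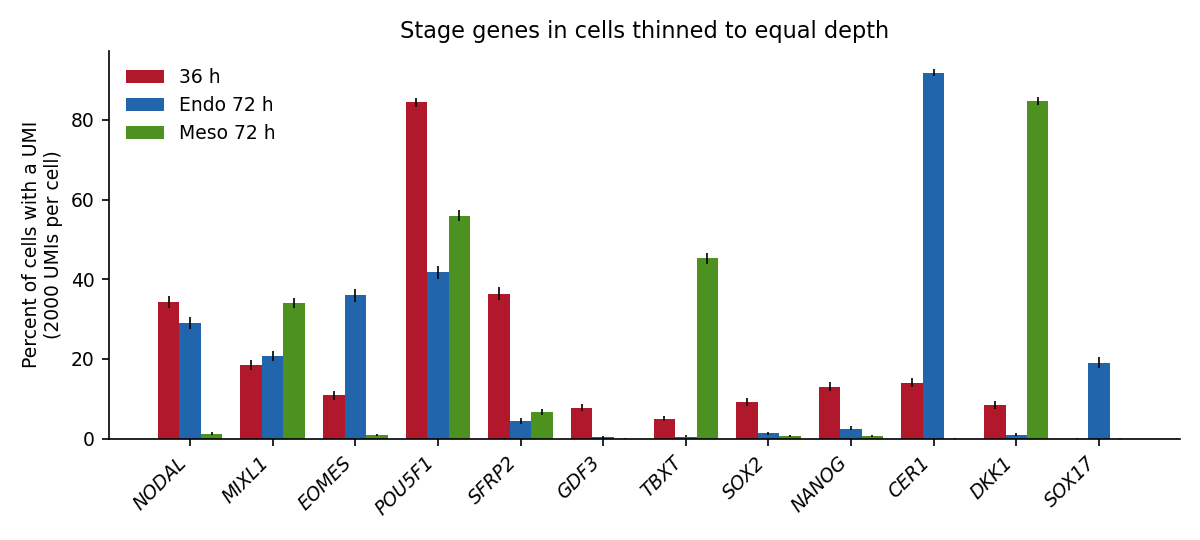
Percent of cells with at least 1 UMI (y) for 12 stage genes (x) in 36 h, Endo and Meso cells thinned to 2000 UMIs; bars start at 0 and error bars are exact 95% Clopper-Pearson intervals, which cover counting error only. POU5F1 is seen in 84.4% of 36 h cells, SFRP2 in 36.3%, and MIXL1 and EOMES in 18.5% and 10.8%.

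Promoter sequence is shown for MIXL1 (a streak factor), SFRP2 (higher at 36 h than in both other libraries) and DKK1 (with wide spread, below). Of 15 genes looked up in the RefSeq promoter table (GRCh38.p14), 10 matched, with 12 promoters. The 250 bases before each start were searched on both strands for 10 motifs, chosen with matches already seen. Capitals mark matches to the 6 motifs with at least 7 letters, which are AATCCACA (bound by FOXH1), AGGTGTGA (T-box factors), CTTTGAT and CTTTGAA (TCF and LEF), GTCTAGAC (SMAD) and ATGCAAAT (POU factors). MIXL1 (chr1:226223414-226223663, plus strand), SFRP2 (chr4:153789084-153789333, minus strand) and DKK1 (chr10:52314031-52314280, plus strand) read as follows.
MIXL1: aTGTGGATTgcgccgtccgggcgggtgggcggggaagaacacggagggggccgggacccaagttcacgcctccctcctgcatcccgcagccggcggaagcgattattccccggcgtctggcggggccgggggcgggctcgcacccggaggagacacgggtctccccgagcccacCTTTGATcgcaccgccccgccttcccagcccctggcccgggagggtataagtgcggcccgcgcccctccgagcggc
SFRP2: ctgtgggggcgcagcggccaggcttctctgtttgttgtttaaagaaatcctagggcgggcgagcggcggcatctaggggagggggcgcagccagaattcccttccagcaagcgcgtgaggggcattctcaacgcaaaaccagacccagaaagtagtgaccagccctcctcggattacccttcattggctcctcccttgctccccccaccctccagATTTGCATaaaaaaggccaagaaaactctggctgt
DKK1: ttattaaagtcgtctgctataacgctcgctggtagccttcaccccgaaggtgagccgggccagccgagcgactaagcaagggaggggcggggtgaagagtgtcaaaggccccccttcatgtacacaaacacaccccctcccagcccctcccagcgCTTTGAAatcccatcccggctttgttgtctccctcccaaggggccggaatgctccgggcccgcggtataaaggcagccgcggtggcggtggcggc
In MIXL1 the FOXH1 motif, on the opposite strand, begins 249 bases before the start and the TCF and LEF motif CTTTGAT 76 bases before it. SFRP2 holds the POU motif, on the opposite strand, 35 bases before the start, and DKK1 holds CTTTGAA 95 bases before it. Among all 35116 promoters of this length, 0.709% hold AATCCACA, 2.26% CTTTGAT, 3.80% CTTTGAA and 1.63% ATGCAAAT. AGGTGTGA and GTCTAGAC, held by 0.786% and 0.182% of all promoters, were in 0 of the 12. The other match among the 12 was CTTTGAA in 1 of 2 TBXT promoters. The promoters shown are thus among the 4 with a match and do not stand for their classes. Those of EOMES, GDF3, CER1 and CYP26A1 held no marked motif. The 4 shorter motifs were AGGTGT (9.57% of all promoters, 0 of the 12), CAGAC (38.0%, 8 of the 12), CCACA (44.8%, 3 of the 12, and part of AATCCACA) and ACAAT (24.6%, 4 of the 12). A match is a run of letters in a window and says nothing of binding.

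Across the genome, 2472 genes were at least 2-fold apart between 36 h and Endo (1142 higher and 1330 lower at 36 h), and 1254 between 36 h and Meso (460 higher and 794 lower). The split depended on the scaling and on the minimum level. With TMM factors, which move the median of all genes by over 0.2 on the log2 scale, 1791 were higher and 900 lower than in Endo, and 906 higher and 512 lower than in Meso. The median log2 ratio to Endo was -0.00 as pooled and 0.32 with TMM, and to Meso -0.06 and 0.23. With pooled scaling and a minimum of 50 CPM, 595 genes were higher and 332 lower than in Endo. Against Meso 211 were then higher and 175 lower.

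Pluripotency genes were higher at 36 h as a group. Of 20 in the list, 19 were in the matrices and 16 reached 10 CPM in either comparison. Against Endo 10 of 16 were at least 2-fold higher and 2 lower, with a median log2 ratio of 1.43, beside 15.1% of all genes higher and 17.6% lower. Against Meso 11 were higher and 1 lower, with a median of 1.68, beside 6.36% and 11.0% of all genes. These shares over all genes are the background for each list count below. NANOG stood at 65.0 CPM at 36 h, against 12.7 in Endo and 3.68 in Meso. SOX2 stood at 48.3 CPM at 36 h, against 6.66 in Endo and 3.48 in Meso, and its log2 ratio to Endo was 2.86 as pooled but 1.81 as a mean over cells. DPPA4, a chromatin protein of early embryos, stood at 215 CPM at 36 h, against 76.2 and 49.5, and the DNA methyltransferase DNMT3B at 98.9 CPM, against 30.2 and 22.6. TERF1, a telomere protein, stood at 304 CPM at 36 h, against 93.7 CPM in Endo and 88.8 CPM in Meso. Not all members followed. LIN28A, an RNA-binding protein, was level at 234 CPM at 36 h, against 195 CPM in Endo and 222 CPM in Meso. The zinc finger factor SALL4 was lower at 36 h, at 45.5 CPM against 113 CPM in Endo and 91.4 CPM in Meso. With TMM factors SALL4 was no longer 2-fold lower than in Meso, where 0 genes of the list were.

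The Nodal pathway differed by role. Of the ligands and co-receptors, TDGF1, the co-receptor for NODAL and GDF3, stood at 307 CPM at 36 h, against 724 CPM in Endo and 68.2 CPM in Meso, and with TMM factors it was no longer 2-fold lower than in Endo. None of 7 receptors and transducers at level was 2-fold higher than in Endo, and 5 were lower, beside 17.6% of all genes, among them the receptor ACVR2B at 21.4 CPM against 58.0 CPM. Their transcription partner FOXH1 was at 198 CPM at 36 h, against 133 CPM in Endo and 320 CPM in Meso. Against Meso 0 of 4 receptors and transducers at level were 2-fold apart. Of 7 feedback genes at level, 5 were lower than in Endo (4 with TMM factors) and 1 higher, while against Meso 4 of 8 were higher and 2 lower. LEFTY1 stood at 62.4 CPM at 36 h, against 879 CPM in Endo and 0 UMIs in Meso, and LEFTY2 at 48.1 CPM, against 697 CPM and 0.200 CPM. These near-identical paralogs can share reads. The 36 h level of LEFTY1 was at least 939-fold that of Meso, with a floor of 3 counts for Meso. FST, which binds Activin, was the one feedback gene higher at 36 h than in Endo, at 73.9 CPM against 33.9 CPM, and stood at 255 CPM in Meso.

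Wnt targets were mostly lower at 36 h than in Meso, and not lower than in Endo by the 2-fold rule. Of 12 direct targets and feedback genes at level, 10 were at least 2-fold lower at 36 h than in Meso and 1 higher, with a median log2 ratio of -2.05, beside 11.0% of all genes lower and 6.36% higher. With TMM factors 8 were lower. Against Endo 3 of 6 at level were higher and 0 lower. AXIN2, a feedback inhibitor of Wnt signalling, stood at 10.3 CPM at 36 h, against 13.8 CPM in Endo and 52.3 CPM in Meso, and NKD1, another, at 6.57 CPM, against 4.14 and 132 CPM. LEF1, a transcription partner of β-catenin, stood at 3.34 CPM at 36 h, against 0.296 CPM in Endo and 41.8 CPM in Meso. SP5, a direct target, was intermediate, at 31.8 CPM at 36 h, against 7.04 CPM in Endo and 72.4 CPM in Meso. Cyclin D1, encoded by CCND1, was near its Meso level, at 190 CPM at 36 h, against 15.7 CPM in Endo and 235 CPM in Meso. MYC, which drives growth genes, was the exception on the high side, at 35.2 CPM at 36 h, against 10.9 CPM in Endo and 3.59 CPM in Meso. The ligand WNT3 stood at 17.6 CPM at 36 h, against 8.20 CPM in Endo and 2.53 CPM in Meso. Of 7 Wnt ligands and receptors at level against Endo, WNT3 alone was higher and 4 were lower. Against Meso 2 of 6 were higher and 2 lower.

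Endoderm genes were mostly lower at 36 h than in Endo, and mesoderm genes mostly lower than in Meso. Of 15 endoderm genes at level, 13 were lower at 36 h than in Endo and 1 (APELA, a peptide ligand) higher, with a median log2 ratio of -3.90, beside 17.6% of all genes lower. Against Meso 3 of 6 were higher and 1 lower (5 of 7 higher with TMM factors). The list summed to 309 CPM at 36 h (139 CPM of it CER1), against 4739 CPM in Endo and 138 CPM in Meso. CXCR4, the surface receptor often used to sort endoderm, had 30 UMIs at 36 h, or 0.389 CPM, against 143 CPM in Endo and 63.9 CPM in Meso. GATA6, an early endoderm factor, stood at 11.5 CPM at 36 h, against 158 CPM in Endo and 18.8 CPM in Meso. Of 16 mesoderm genes at level in the comparison with Meso, 14 were lower at 36 h and 2 (KDR and LHX1) higher, beside 11.0% and 6.36% of all genes. TBX6, a factor of paraxial mesoderm, stood at 5.54 CPM at 36 h, against 7.58 CPM in Endo and 82.1 CPM in Meso, and MSX1 at 4.11 CPM, against 2.13 and 196 CPM. HES7, of the segmentation clock, had 9 UMIs at 36 h and stood at 37.8 CPM in Meso. Genes of unrelated lineages were near 0. The 15 genes of blood, vessel, muscle, pancreas, liver and nerve summed to 2.95 CPM at 36 h, with 7 of them at 0 UMIs, against 96.0 CPM in Endo (93.3 of it APOA2) and 2.24 CPM in Meso. Amnion and trophoblast genes summed to 5.63 CPM at 36 h, against 16.9 CPM in Endo and 83.2 CPM in Meso, of which 77.9 CPM was CDX2, also a gene of the mesoderm list.

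Genes of DNA replication were higher at 36 h than in Endo, while those of mitosis were close. Of 15 S-phase genes, 10 were at least 2-fold higher than in Endo and 0 lower, and 3 higher and 0 lower than in Meso. PCNA, the sliding clamp, stood at 162 CPM at 36 h, against 27.2 CPM in Endo and 65.3 CPM in Meso, and was found in 27.0%, 4.88% and 11.7% of thinned cells. MCM3, of the replicative helicase, stood at 133 CPM, against 35.8 and 98.2 CPM. Of 18 mitotic genes, 0 were higher and 1 (MKI67) lower than in Endo, though 4 were higher with TMM factors. MKI67, a proliferation marker, stood at 38.7 CPM at 36 h, against 95.1 CPM in Endo and 96.5 CPM in Meso.

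Epithelial genes were split, and several mesenchymal genes were lower at 36 h. KRT18, a keratin, stood at 1053 CPM at 36 h, against 517 CPM in Endo and 474 CPM in Meso, and the claudin CLDN6 at 302 CPM, against 118 and 123 CPM. The keratin KRT19 went the other way, at 116 CPM at 36 h, against 464 CPM in Endo and 725 CPM in Meso. Vimentin, a mesenchymal filament encoded by VIM, stood at 72.7 CPM at 36 h, against 591 CPM in Endo and 566 CPM in Meso. CDH2 (N-cadherin) stood at 32.7 CPM at 36 h, against 202 and 124 CPM, whereas CDH1 (E-cadherin) was between the others, at 35.2 CPM against 21.9 CPM in Endo and 47.6 CPM in Meso. Of the 10 genes of this list at level against Endo, 2 were higher and 4 lower, the higher share being near that of all genes (15.1%), and of 13 against Meso 2 were higher and 6 lower (11.0% of all genes lower). The 2-fold call of KRT18 against Endo was lost over all barcodes, at a log2 ratio of 0.98, and as a mean over cells, at 0.80. Part of the glycolysis and hypoxia list was lower at 36 h. BNIP3, of mitophagy, stood at 183 CPM at 36 h, against 651 CPM in Endo and 1041 CPM in Meso, and 5 of 14 genes of glycolysis and hypoxia were lower than in Endo, with 1 higher (the glucose transporter SLC2A1), and 6 of 14 lower than in Meso, with 0 higher, beside 17.6% and 11.0% of all genes lower. With TMM factors 4 of 15 were lower than in Endo and 2 higher, and the median log2 ratio was -0.00 in place of -0.52. Of 6 BMP genes against Endo, ID1, ID2 and ID3, which BMP signals induce, were higher and 2 were lower. ID3 stood at 513 CPM at 36 h, against 213 CPM in Endo and 693 CPM in Meso. Against Meso 0 of 7 were higher and 4 lower.

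The largest ratios named other genes. Among genes that reached 50 CPM in one of the libraries compared, those highest over Endo were led by OLFML3, a secreted glycoprotein, at 75.9 CPM at 36 h against 2.72 CPM in Endo and 56.1 CPM in Meso. POLR3G, a subunit of RNA polymerase III found in pluripotent cells, stood at 92.9 CPM at 36 h, against 4.38 CPM in Endo and 34.5 CPM in Meso. Ribosome-assembly proteins NOP16, PAK1IP1 and RRS1 were also among the 15, at 154, 107 and 73.6 CPM at 36 h, against 16.3, 12.0 and 8.61 CPM in Endo. Lowest against Endo were GYPB, a glycophorin with near-identical relatives, with 0 UMIs at 36 h against 174 CPM in Endo, and SOX17. ERBB4, a receptor kinase, had 8 UMIs at 36 h and stood at 176 CPM in Endo. Over Meso the leading genes were LEFTY1, CER1 and CYP26A1, an enzyme that degrades retinoic acid, at 57.7 CPM at 36 h against 858 CPM in Endo and 13 UMIs in Meso. The metallothioneins MT2A, MT1G, MT1E and MT1H, which share sequence, were among the 15 as well. MT2A stood at 214 CPM at 36 h, against 193 CPM in Endo and 21.3 CPM in Meso. Lowest against Meso were HOXA-AS3, with 0 UMIs at 36 h against 54.4 CPM in Meso, and the homeobox factor HOXB1, with 8 UMIs at 36 h against 92.8 CPM in Meso.

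**Figure D3:**
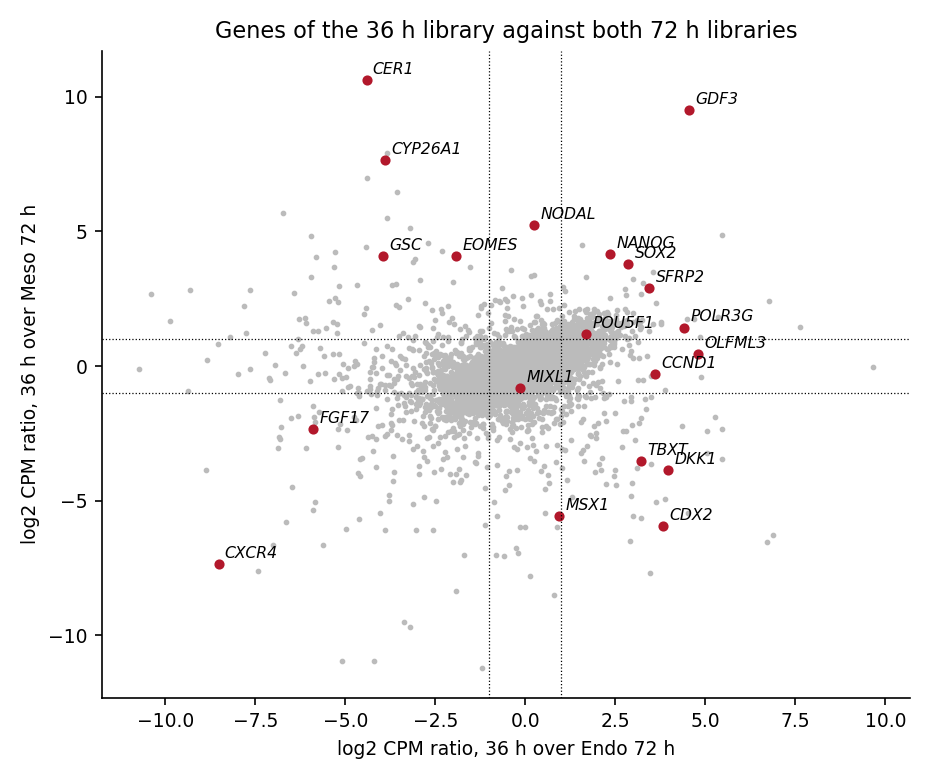
Log2 CPM ratio of 36 h over Endo (x) against that of 36 h over Meso (y) for genes with at least 10 CPM in 1 library and UMIs in all 3; dotted lines mark 2-fold and red points are named genes. Both axes share the 36 h library, so the overall slope is not a result. SFRP2, GDF3, NANOG and SOX2 lie at the upper right, higher at 36 h than in both, and CXCR4 lies at the lower left.

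Few genes at 36 h had a variance well above their mean once depth was made equal. In cells thinned to 2000 UMIs, random capture alone gives a variance equal to the mean. Of 2179 genes with a thinned mean of at least 0.1, 28 (1.28%) had a variance over 1.5 times the mean. Of these, 9 were mitochondrially encoded and 19 were others. Over the 1517 genes at that mean in all 3 libraries, 24 passed at 36 h, against 113 in Endo and 29 in Meso. The median variance over mean of these genes was 1.03 at 36 h, against 1.06 in Endo and 1.03 in Meso. This ratio rises with the mean count, so a value near 1 at 2000 UMIs does not show that spread is small. At 5000 UMIs, 89 of 4201 genes passed at 36 h.

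The 6 given markers differed in how evenly they were spread. POU5F1 had a variance over mean of 1.05 at 36 h, against 1.44 in Endo and 1.02 in Meso, and a coefficient of variation beyond sampling of 0.162 at 36 h, against 0.838 in Endo and 0.173 in Meso. SFRP2 had 1.07, NODAL 1.12, GDF3 1.13 and EOMES 1.10. MIXL1 had 1.47, the highest of the 6, with a coefficient of variation of 1.38, against 1.18 in Endo and 0.532 in Meso. Thinned to 5000 UMIs, MIXL1 reached 2.11 at 36 h and had 0 UMIs in 65.0% of 2919 cells, with a maximum of 12. POU5F1 at that depth had a median of 5 UMIs, a 5th to 95th percentile range of 1 to 9, and 0 in 1.13% of cells. The mean and standard deviation there were 4.89 and 2.42 for POU5F1, 1.18 and 1.12 for SFRP2, and 1.17 and 1.19 for NODAL. They were 0.64 and 1.16 for MIXL1, 0.38 and 0.73 for EOMES, and 0.24 and 0.54 for GDF3.

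DKK1 and CER1, both secreted inhibitors, were among the most unevenly spread genes. The secreted inhibitors SFRP2 and LEFTY1 were not, with 1.07 and 1.14. DKK1, an inhibitor of the Wnt co-receptors, had a variance over mean of 3.80 and was seen in 8.37% of thinned 36 h cells. CER1, which binds NODAL, had 3.62 and was seen in 478 of the 3416 thinned cells. The enzyme CYP26A1 had 2.10 and was seen in 7.26%. At 5000 UMIs the 5% of 36 h cells with the most CER1 held 66.6% of its UMIs, and for DKK1 79.3%. Sparse genes concentrate by sampling too, so genes of like mean are the fair comparison. CYP26A1 (mean 0.28) had 71.3% of its UMIs in the top 5% of cells, against 36.6% for SOX2 (mean 0.25) and 38.0% for GDF3 (mean 0.24). HAS2, which makes hyaluronan (mean 0.14), had 69.1%, against 48.1% for TBXT at the same mean.

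Other genes with wide spread moved with depth. MALAT1, a nuclear RNA, had the highest value of all, 12.0, over deep and shallow cells together. It stood at 2835 CPM in deep 36 h cells, 6530 CPM in shallow ones and 10921 CPM in the barcodes left out. HIST1H4C, a histone gene of S phase, had 3.47 and stood at 2007 CPM in deep and 481 CPM in shallow cells. HNRNPH1 (1.78) and CTNNB1 (1.62) were likewise at 204 and 76.0 CPM in deep cells and 457 and 212 CPM in shallow cells. In the deep cells alone, 27 genes had wide spread, of which 23 were among the 28 found with shallow cells included. Thinned to 5000 UMIs, the deep cells had a mean of 14.6 and a standard deviation of 11.0 for MALAT1. For DKK1 these were 0.499 and 2.09. How far depth or RNA quality sets the value of each gene was not tested. CER1 and DKK1 were lower in shallow cells, DKK1 at 97.0 CPM in deep and 54.9 CPM in shallow cells, and MIXL1 at 134 and 65.1 CPM. The neuropeptide genes NTS and GAL had 1.96 and 1.55, with NTS in 50.8% of 36 h cells, against 8.33% in Endo and 16.1% in Meso.

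**Figure D4:**
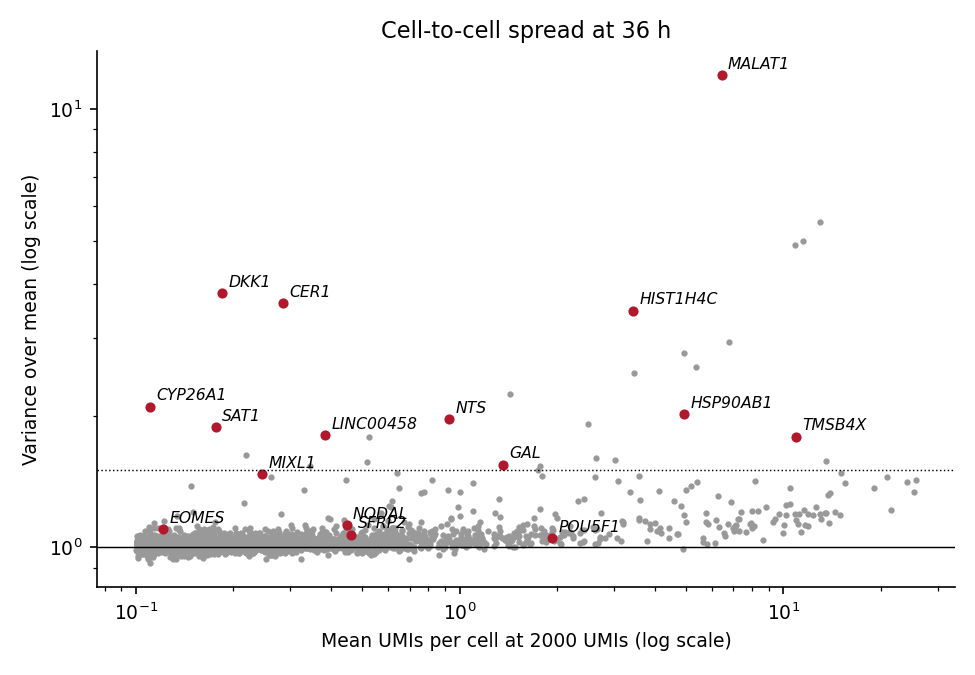
Mean UMIs per cell (x, log scale) against variance over mean (y, log scale) for 2179 genes in 36 h cells thinned to 2000 UMIs. The solid line at 1 is sampling alone and the dotted line is 1.5. DKK1 and CER1 stand far above genes of like mean, at 3.80 and 3.62, while POU5F1 lies at 1.05.

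Counts of CER1, DKK1 and 4 other genes varied together between 36 h cells. Over the 2919 cells thinned to 5000 UMIs, CER1 and DKK1 had a Pearson r of 0.66 (log2 of count + 1), and CER1 had 0.56 with FGF17, 0.55 with DKK4, 0.53 with CYP26A1 and 0.52 with HAS2. FGF17 is a growth factor and DKK4 a relative of DKK1. The 6 genes were chosen after these correlations were seen. The cells share 1 library and one pool of RNA, and values at 2000 UMIs were lower, 0.54 for CER1 with DKK1. MIXL1 had 0.47 with CER1 and 0.46 with DKK1, and 0.31 with EOMES. NODAL had 0.10 with CER1, and LEFTY1 had -0.04. POU5F1 had -0.17 with CER1, and SOX2 had -0.15 with MIXL1, weak relations in sparse counts. Under the rule used for naming partners, which took abundant genes at 2000 UMIs, the best partners of the markers had r of at most 0.12. No finding is drawn from them. In Endo at 5000 UMIs CER1 had 0.39 with FGF17, 0.25 with DKK4, 0.15 with CYP26A1, 0.14 with HAS2 and 0.09 with DKK1. Part of the block was thus seen there too, more weakly. In Meso 2 of 5175 cells had CER1, so its r there says little.

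**Figure D5:**
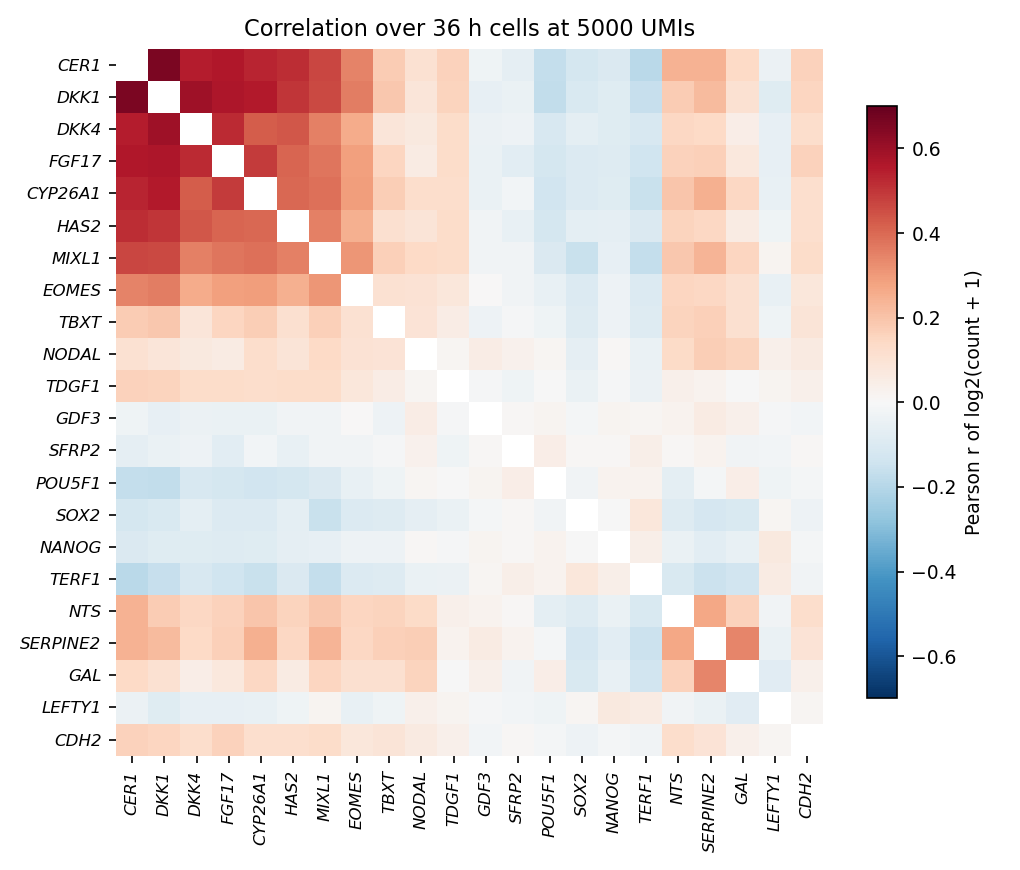
Pearson r of log2(count + 1) between 22 genes over 2919 cells of the 36 h library at 5000 UMIs (colour); the diagonal is left blank. CER1, DKK1, DKK4, FGF17, CYP26A1 and HAS2 form a block with MIXL1 and EOMES beside it, and POU5F1, SOX2, NANOG and TERF1 are weakly negative against it.

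CER1 and DKK1 parted ways in the 72 h libraries. At 5000 UMIs, 247 of 2919 cells (8.46%, 7.48 to 9.53) at 36 h had both, against 53 of 2650 (2.00%) in Endo and 2 of 5175 (0.0386%) in Meso. At 36 h DKK1 was found in 39.5% of cells with CER1 and 6.19% of cells without it, so most cells with CER1 had no UMI of DKK1. In Endo CER1 was in 98.2% and DKK1 in 2.00% of cells, whereas in Meso CER1 was in 0.0386% and DKK1 in 96.5%. MIXL1 was in 58.1% of 36 h cells with CER1 and in 28.7% of those without. The share of CER1 cells with NODAL was 71.2%, and that of the others 63.1%.

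Of the 6 co-varying genes, 63.6% of 36 h cells had none at 5000 UMIs, and 5.93% (5.10 to 6.85) had at least 4, against 49.5% of Endo cells and 4.46% of Meso cells. All 6 were found in 46 cells (1.58%) at 36 h, against 0.226% in Endo and 0 of 5175 cells in Meso. The 173 cells with at least 4 had a median of 24263 UMIs, against 25777.5 for the 1856 with none, so they were not deeper. In those 173 cells MIXL1 stood at 579 CPM (530 to 632), against 71.3 CPM in the 1856. EOMES stood at 299 CPM, against 51.4 CPM, LHX1 at 245 CPM, against 1.51 CPM, and GATA6 at 116 CPM, against 1.72 CPM. TBXT stood at 86.7 CPM, against 18.8 CPM, and GSC at 45.1 CPM, against 2.48 CPM. APLNR and MSX1, of the mesoderm list, were higher too, at 92.5 and 46.2 CPM, against 1.72 and 1.29 CPM. SOX2 was lower, at 5 UMIs or 5.78 CPM (1.88 to 13.5), against 55.3 CPM, and NANOG at 22.0 CPM, against 70.6 CPM. POU5F1 stayed present, at 729 CPM, against 1022 CPM, and was found in 96.0% of the 173 cells. SFRP2 stood at 177 CPM, against 239 CPM, GDF3 at 24.3 CPM, against 47.2 CPM, and NODAL at 317 CPM, against 211 CPM. These genes did not choose the cells, but MIXL1 and EOMES among them already correlated with the 6 over the same counts. Others did so more weakly. With CER1, TBXT had r of 0.18, SOX2 -0.12, NANOG -0.10 and POU5F1 -0.17. The differences of such genes restate those relations and are not separate support. The genes were also picked with earlier results known, cells between the 2 groups are left out, and the values describe 1 library.

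Bulk cultures with Activin A and CHIR99021 lie on both sides of 36 h. By the labels the 72 h samples were sorted definitive endoderm, while the titles of these 6 h and 24 h samples name no sorting. Time and sorting thus cannot be told apart between 24 h and 72 h. They come from another assay, in expected counts per gene, and 2 libraries each, so levels are shown over time and not set against single-cell levels. In bulk RNA fewer cells of a type and less RNA per cell cannot be told apart. MIXL1 had 79.5 and 79.3 CPM at 6 h, 1065 and 1087 CPM at 24 h, and 82.1 and 66.3 CPM at 72 h. TBXT had 16.9 and 12.4 CPM at 6 h, 236 and 194 CPM at 24 h, and 3.10 and 2.19 CPM at 72 h. EOMES had 122 and 127 CPM at 6 h, 655 and 712 CPM at 24 h, and 399 and 439 CPM at 72 h. All 3 were thus highest at 24 h among these times, above both libraries of the other times, while the 6 h values of MIXL1 lay within its 72 h range. SOX2 had 81.1 and 83.7 CPM at 6 h, 6.49 and 9.11 CPM at 24 h, and 1.89 and 1.09 CPM at 72 h. SFRP2 had 491 and 452 CPM at 6 h, 237 and 257 CPM at 24 h, and 9.72 and 15.5 CPM at 72 h. DKK1 was near 0 at 6 h (0.649 and 1.37 CPM), at 454 and 445 CPM at 24 h, and at 0.405 and 2.19 CPM at 72 h. CER1 had 39.1 and 40.7 CPM at 6 h, 1190 and 1357 CPM at 24 h, and 4387 and 3845 CPM at 72 h. CER1 and DKK1 were both high in the 24 h bulk libraries, and only CER1 at 72 h.

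In rank, the whole 36 h profile was closer to some 6 h bulk libraries than to later ones given Activin A and CHIR99021. These 6 h libraries included the untreated ones and those given Activin A and CHIR99021. Over 15643 genes shared by both assays, Spearman's rho of pooled 36 h CPM was 0.825 and 0.822 with the 6 h libraries given Activin A and CHIR99021, 0.761 and 0.763 with the 24 h libraries and 0.710 and 0.703 with the 72 h libraries. With the untreated 6 h libraries it was 0.815 and 0.819, close to the treated ones. Endo had 0.781 and 0.778, 0.759 and 0.763, and 0.796 and 0.787 with the same libraries, and Meso 0.800 and 0.798, 0.764 and 0.765, and 0.721 and 0.715. Among the libraries given Activin A and CHIR99021, Meso was thus also closest to those at 6 h. That rank is therefore not particular to the 36 h cells. Not every 6 h library ranked high. Those given the compound BRD alone had 0.752 and 0.761 with the 36 h cells, and 0.737 and 0.744 with Meso. Genes are not independent replicates, the measure was added after the data were seen, and no test was made.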

How the data were processed

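Single-cell RNA was measured in 3 droplet libraries and bulk RNA in 32 samples. The authors deposited raw UMI counts per gene and barcode, made with Cell Ranger 3.0.2 per the file headers, against 33539 features including an mNeonGreen entry. For bulk RNA the authors deposited expected counts per gene (16103 genes), scaled here to CPM in 30 libraries (4.57 to 49.5 M counts) and not tested. The submitters' processing notes also name Salmon 1.4.0, Seurat 4.0.2, limma 3.48.1 and edgeR 3.34.0.

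Barcodes under 500 genes or over 10% mitochondrial UMIs were left out, leaving 77.2, 33.8 and 45.1 M UMIs at 36 h, in Endo and in Meso. Levels are pooled CPM with exact 95% Poisson intervals. Shares come from cells thinned to 2000 UMIs, with Clopper-Pearson intervals. A gene counted as higher or lower at 2-fold or more where it reached 10 CPM in either library. A count of 0 was given a floor of 3 counts per library. Spread is variance over mean of thinned counts, for genes with a mean of at least 0.1. Correlations are Pearson's on log2(count + 1). With 1 library per group no p-value was computed, and intervals and floors cover counting error only. No doublet caller was run; leaving out the 5% of cells with the most UMIs was an alternative. Functions were tested on simulated data. Named genes were the 15 largest ratios per direction with at least 50 CPM, the 20 widest spreads, the 5 best-correlated genes of each marker and the genes of 23 lists (282 genes). The members and lists were chosen with earlier results of these data known. The 6 co-varying genes, the motifs, the bulk rank correlation and the alternatives on cells with at least 5000 UMIs and on shared barcodes were chosen after seeing the data. Python 3.11.15, numpy 2.4.6, scipy 1.17.1, pandas 2.3.3, matplotlib 3.10.9, R 4.3.3 and edgeR 4.0.16 (TMM factors only) were used. A gene that the naming rule also picked is not reported here.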

Additional observations from a re-analysis of the deposited data

How the results depend on the processing

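Of 2-fold ratios, 2472 genes against Endo and 1254 against Meso became 927 and 386 with a minimum of 50 CPM, and 13117 and 9695 with no minimum level, where a single UMI can make a ratio. Under the other 7 settings the counts stayed between 2391 and 2691 against Endo and between 1182 and 1418 against Meso. The 28 genes with wide spread became 62 over all barcodes, 17 under a stricter cell filter (2000 genes, 5% mitochondrial UMIs), 13 at 1000 UMIs, 89 at 5000 UMIs and 44 with no minimum mean. The cause was not tested. Of 595 log2 ratios recomputed for named genes, 163 moved beyond their counting interval and 0 changed sign as a called value. SOX2 over Endo was 2.86, 3.51 under that stricter filter and 1.81 as a mean over cells, and LEFTY2 over Meso 7.91 and 8.75 under it. Depth limits shares and correlations of sparse genes. No paired analysis was possible because each group has 1 library and no result comes from a test.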
